A study of Homo sapiens with 6 samples.

Results

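In all, 10 genes of human colon cancer cells are described here: LGR5, ASCL2, AXIN2, NKD1, RNF43, ZNRF3, SMOC2, APCDD1, NOTUM and SP5. They are genes of WNT feedback or of intestinal stem cells, and were taken by name from the deposited read count table, which held 1 line for each of the 10 among 60835 unique gene names. The cells were SW620, an established line derived from a lymph node metastasis of a colon cancer. Cells with a control short hairpin vector (shControl, genotype WT in the labels) gave 3 libraries, and cells described as a stable DNM1 knockdown (shDNM1) gave another 3. The question was which mRNAs differ when DNM1, the gene of the vesicle-cutting GTPase dynamin 1, is lowered. Both sets were kept in serum-containing high-glucose DMEM and differed, per the labels, in the vector and in the batch. Neither the hairpin sequence nor whether a set was a single clone or a pool is stated there.

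WNT ligands bind Frizzled receptors with the co-receptors LRP5 and LRP6, which stops the destruction complex from degrading beta-catenin, and beta-catenin with TCF/LEF factors then activates target genes. Many of those targets act back on the pathway. AXIN2 is a scaffold of the destruction complex, NKD1 binds Dishevelled, RNF43 and ZNRF3 are membrane ubiquitin ligases that remove Frizzled receptors, NOTUM is a secreted enzyme that inactivates WNT ligands, APCDD1 is a membrane inhibitor and SP5 is a transcription factor of the Sp family. In the intestine WNT signalling maintains the crypt stem cells, which are marked by LGR5, a receptor for R-spondins, by the transcription factor ASCL2 and by the matricellular protein SMOC2. SW620 cells carry a truncating APC mutation, so beta-catenin is active in them without added ligand.

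RefSeq promoter sequences (GRCh38.p14, 250 bases before to 50 after a gene's start) were at hand for 4 of the 10 genes, SP5, SMOC2, APCDD1 and RNF43. Of these, 3 are shown: SMOC2 and APCDD1, whose mRNA differed most in opposite directions, and SP5, whose mRNA did not pass the test and whose promoter alone of the 4 held TCF/LEF motifs. Capitals mark the TCF/LEF motifs CTTTGAT and CTTTGAA and the GC box GGGCGG, each searched on both strands, with none overlapping another. The SP5 promoter lies at chr2:170715087-170715386, the SMOC2 promoter at chr6:168440934-168441233 and the APCDD1 promoter at chr18:10454385-10454684, all on the plus strand, and each is printed 5′ to 3′.
SP5: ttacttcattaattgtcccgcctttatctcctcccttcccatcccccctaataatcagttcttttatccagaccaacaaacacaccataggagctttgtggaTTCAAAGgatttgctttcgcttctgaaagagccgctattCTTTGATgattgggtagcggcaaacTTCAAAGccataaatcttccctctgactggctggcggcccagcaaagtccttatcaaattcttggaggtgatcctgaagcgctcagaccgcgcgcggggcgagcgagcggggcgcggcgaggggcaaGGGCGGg
SMOC2: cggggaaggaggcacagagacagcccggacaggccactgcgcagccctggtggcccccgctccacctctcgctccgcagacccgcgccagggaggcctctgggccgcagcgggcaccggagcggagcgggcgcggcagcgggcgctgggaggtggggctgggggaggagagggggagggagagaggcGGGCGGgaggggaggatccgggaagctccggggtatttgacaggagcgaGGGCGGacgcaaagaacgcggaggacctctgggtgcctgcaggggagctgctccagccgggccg
APCDD1: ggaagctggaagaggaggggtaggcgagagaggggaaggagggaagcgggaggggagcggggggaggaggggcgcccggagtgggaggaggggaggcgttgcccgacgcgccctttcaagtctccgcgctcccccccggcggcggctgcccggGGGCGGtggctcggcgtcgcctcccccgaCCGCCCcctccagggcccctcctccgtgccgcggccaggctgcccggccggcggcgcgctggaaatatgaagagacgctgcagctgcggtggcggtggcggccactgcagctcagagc
In SP5, CTTTGAT began at position -109 from the start, and CTTTGAA occurred on the reverse strand at -148 and -84. Among 35116 promoters of this length, 2.62% held CTTTGAT and 4.43% held CTTTGAA. The SMOC2 promoter held GGGCGG at -63 and -14, and the APCDD1 promoter held it at -97 and, on the reverse strand, at -68. That box occurred in 45.0% of all promoters and once in SP5, at position 44 after the start. Neither of the 2 RNF43 promoters listed held any of the 3 motifs. These matches describe the letters in these windows only.

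The libraries held 12844534 to 13537519 counts. DNM1 was 129 ± 3.78 CPM in shControl and 116 ± 16.1 CPM in the libraries labelled shDNM1 (CPM, read counts scaled to library size with TMM factors; SD, n = 3). Its log2 fold change was -0.15 (SE 0.083, adjusted p = 0.189 by edgeR's quasi-likelihood test with Benjamini-Hochberg adjustment). Every shDNM1 library lay below every shControl library, by 0.71% at the nearest, as held for 23.1% of all genes tested. A two-sided exact permutation test gave p = 0.1, its value at full separation, which no design of this size can go below. Without shDNM1 replicate 1 the DNM1 difference passed (log2 fold change -0.20, adjusted p = 0.0399), and without shDNM1 replicate 2 it was -0.037 (adjusted p = 0.718). The target mRNA was thus not clearly lower, and every direction below is between the labelled sets. The labels give batch_A for every shControl and batch_B for every shDNM1 library, and batch and vector cannot be told apart. No label ties the libraries of a set to separate cultures, so a p-value reflects library-to-library spread alone, possibly technical. Of 11 colon epithelial markers, 8 had at least 10 counts in every library. All 11 together summed to 8687 to 9378 CPM (library size alone) in shControl and 9942 to 10819 in shDNM1. KRT8 (72054 to 91744 counts) made up most of that sum, and single markers went both ways. CDX2 had 83 to 126 counts in shControl and 238 to 282 in shDNM1, and EPCAM had 5482 to 5597 and 4651 to 4959. CDX1 was at 0 counts in every library, and KRT20 had 5 to 18. Fibroblast markers summed to 31.4 to 39.3 CPM in shControl and 41.1 to 57.3 in shDNM1, with COL3A1 at 0 and COL1A2, DCN and PDGFRA at no more than 1 count in any library. Most of that sum came from LUM (279 to 529 counts) and COL1A1 (127 to 184), and PDGFRB had 18 to 37 counts in shControl and 61 to 66 in shDNM1. Endothelial markers summed to 17.2 to 20.5 and 17.2 to 22.6 CPM, mostly from PECAM1 (142 to 190 counts) and VWF (64 to 118), with KDR at 0. Immune markers summed to 4.14 to 5.06 and 1.80 to 2.53 CPM, with CD3E and MS4A1 at 0. Most of the immune sum came from LYZ, which had 46 to 55 counts in shControl and 17 to 27 in shDNM1.

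All 10 genes passed the low-count filter, and the pair of sets differed in a mixed pattern. APCDD1 and ASCL2 rose, SMOC2, LGR5 and NOTUM fell, and AXIN2, NKD1, RNF43, ZNRF3 and SP5 did not pass an adjusted p of 0.05. Thus 5 of the 10 were called, against 31.9% of the 16744 genes tested. Calls higher in shDNM1 made up 15.6% of all genes and calls lower 16.2%. The median log2 fold change of the 10 was -0.06, against -0.01 over all genes, and the median absolute log2 fold change was 0.30 against 0.24. For 6 of the 10 genes the sets had no overlapping values, against 44.3% of all genes. A called change of at least 2-fold was found for APCDD1 and SMOC2, and for 4.81% of all genes.

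**Figure D1:**
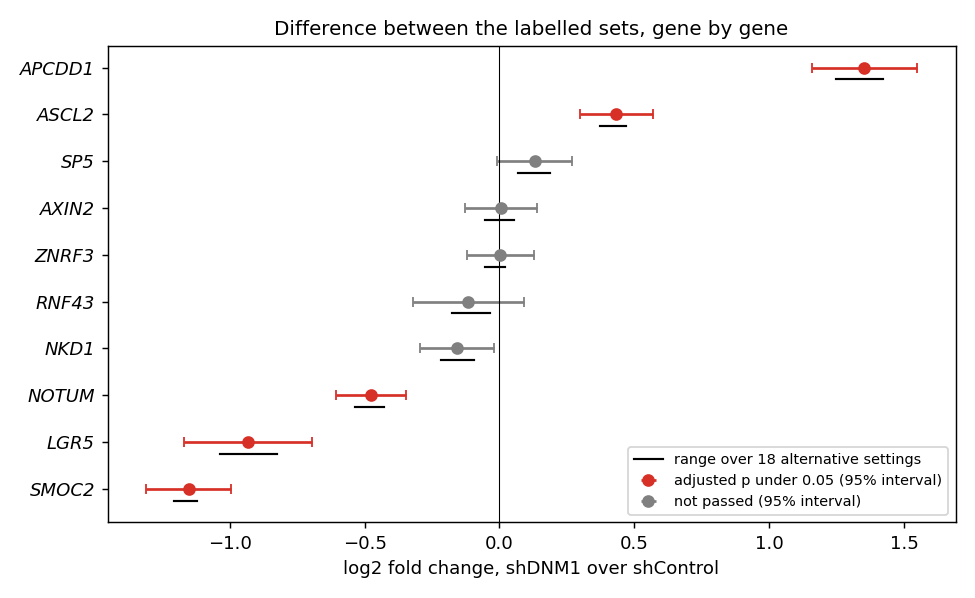
Log2 fold change (shDNM1 over shControl, x axis) of each gene (y axis) with its 95% interval, red where the adjusted p was under 0.05, and a black line for the range over 18 alternative settings. SMOC2, LGR5 and NOTUM lie left of 0, ASCL2 and APCDD1 right of it, and the intervals of AXIN2 and ZNRF3 are centred near 0.

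The stem cell genes did not move together. LGR5 (ENSG00000139292, GRCh38 chromosome 12, 71439798 to 71586310, plus strand) was at 39.1, 29.5 and 35.1 CPM in shControl replicates 1 to 3 and at 19.96, 17.4 and 17.0 CPM in shDNM1 replicates 1 to 3. All shDNM1 values lay below all shControl values, and the widest gap within a set was between shControl replicates 1 and 2. LGR5 fell by 0.93 on the log2 scale (SE 0.11, 95% interval -1.17 to -0.69, adjusted p = 5.31e-06), to 52.4% of the control level. In bulk RNA, fewer cells with a transcript and less of it per cell cannot be told apart.

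SMOC2 (ENSG00000112562, chromosome 6, 168441151 to 168673445, plus strand), which encodes a secreted calcium-binding matrix protein, was at 76.8, 73.3 and 79.7 CPM in shControl and at 34.3, 36.0 and 33.1 CPM in shDNM1. The spread within each set was small beside the gap between them. It fell by 1.15 on the log2 scale (SE 0.075, interval -1.31 to -0.995, adjusted p = 3.41e-09), to 45.0% of control, and 384 of the 16744 genes had a lower fold change.

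ASCL2 (ENSG00000183734, chromosome 11, 2268498 to 2270588, minus strand), a basic helix-loop-helix factor, went the other way. It was at 93.4, 96.8 and 91.0 CPM in shControl and at 121, 132 and 127 CPM in shDNM1, again without overlap. Its log2 fold change was 0.43 (SE 0.065, interval 0.30 to 0.57, adjusted p = 5.09e-05), a 1.35-fold rise. On the length-normalised scale of the deposited TPM values, LGR5 stood at 13.6, 9.86 and 12.5 per 100 of ASCL2 in the shControl libraries and at 5.36, 4.28 and 4.31 in the shDNM1 libraries. SMOC2 stood at 35.7 to 41.3 per 100 of ASCL2 in shControl and at 12.2 to 13.4 in shDNM1.

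**Figure D2:**
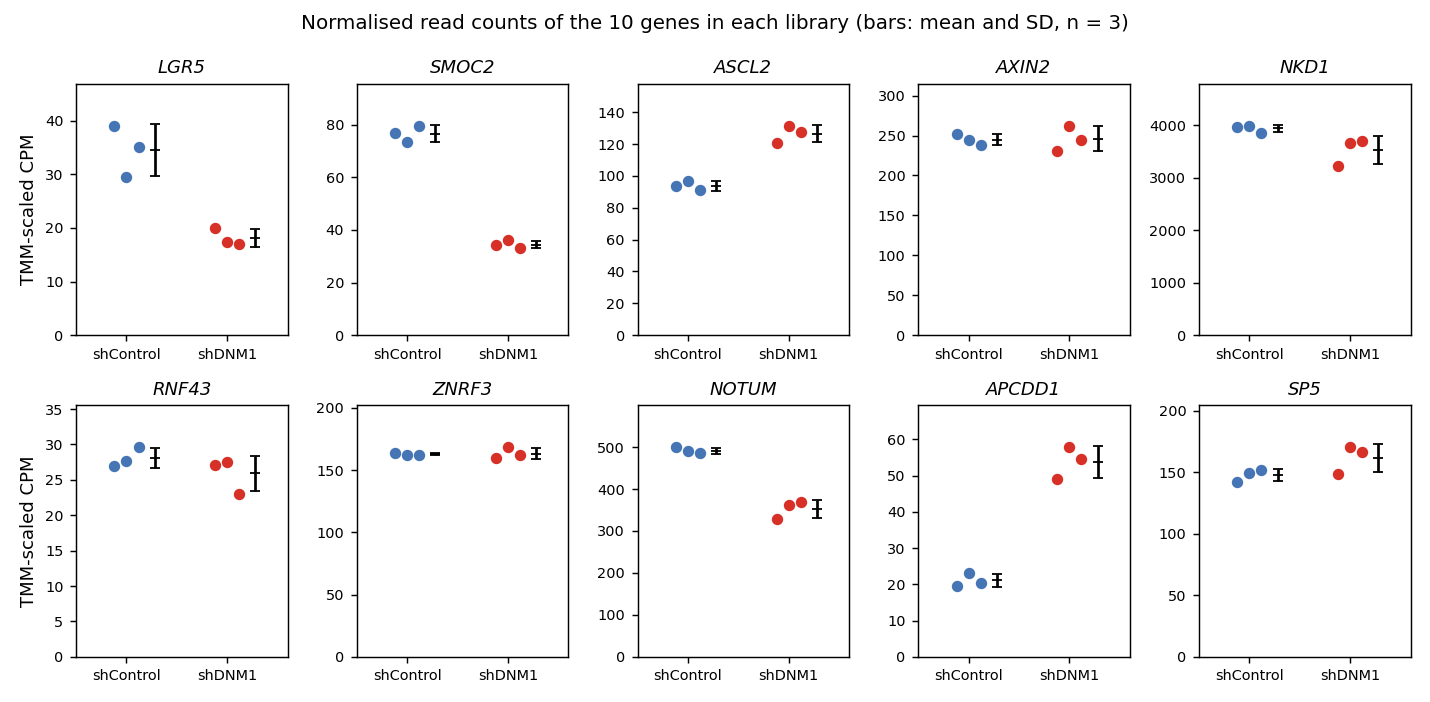
TMM-scaled CPM (y axes, from 0) of each gene in the 3 shControl (blue) and 3 shDNM1 (red) libraries, with mean and SD in black. The sets are apart for LGR5, SMOC2, ASCL2, NOTUM, APCDD1 and, narrowly, NKD1, and overlap for AXIN2, RNF43, ZNRF3 and SP5.

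Of the inhibitors that act outside the cell or at its surface, APCDD1 and NOTUM changed in opposite directions. APCDD1 (ENSG00000154856, chromosome 18, 10454635 to 10489949, plus strand) was at 19.6, 23.1 and 20.4 CPM in shControl and at 49.1, 57.8 and 54.7 CPM in shDNM1. Its lowest shDNM1 library was thus above 2-fold the highest shControl library. It rose 2.55-fold (log2 fold change 1.35, SE 0.093, interval 1.16 to 1.55, adjusted p = 5.96e-09), and 136 genes had a higher fold change. NOTUM (ENSG00000185269, chromosome 17, 81952507 to 81961840, minus strand) was at 499, 490 and 485 CPM in shControl and at 329, 362 and 368 CPM in shDNM1. The sets did not overlap, and shDNM1 replicate 1 was the lowest library. NOTUM fell by 0.48 on the log2 scale (SE 0.061, interval -0.61 to -0.35, adjusted p = 1.06e-05), to 71.8% of control.

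The paralogous ubiquitin ligases RNF43 and ZNRF3 did not pass. RNF43 (ENSG00000108375, chromosome 17, 58353676 to 58417595, minus strand) was at 26.9, 27.6 and 29.6 CPM in shControl and at 27.1, 27.6 and 23.0 CPM in shDNM1, where replicate 3 alone lay below the controls. Its log2 fold change was -0.11 (SE 0.098, adjusted p = 0.404), with a 95% interval from 80.1% to 106% of control. ZNRF3 (ENSG00000183579, chromosome 22, 28883572 to 29057488, plus strand) was at 164, 162 and 162 CPM in shControl and at 160, 168 and 162 CPM in shDNM1. The shDNM1 values lay on either side of the controls, and the interval ran from 91.9% to 109% of control (log2 fold change 0.0031, SE 0.060, adjusted p = 0.976).

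The intracellular feedback genes and SP5 showed small differences. AXIN2 (ENSG00000168646, chromosome 17, 65528563 to 65561648, minus strand), a widely used readout of beta-catenin activity, was at 252, 244 and 238 CPM in shControl and at 231, 262 and 245 CPM in shDNM1. The lowest and the highest library were both shDNM1, and the interval ran from 91.6% to 110% of control (log2 fold change 0.0070, SE 0.064, adjusted p = 0.949). The values of AXIN2 and ZNRF3 were so near 0 that their sign changed between alternative settings, without a call in any. SP5 (ENSG00000204335, chromosome 2, 170715337 to 170718078, plus strand) was at 142, 149 and 152 CPM in shControl and at 149, 170 and 167 CPM in shDNM1, with shDNM1 replicate 1 inside the control range. Its log2 fold change was 0.13 (SE 0.066, adjusted p = 0.147), and without shDNM1 replicate 1 it was 0.19 and passed (adjusted p = 0.0133).

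NKD1 (ENSG00000140807, chromosome 16, 50548396 to 50649249, plus strand) lay at the edge of the test. It was at 3968, 3994 and 3856 CPM in shControl and at 3224, 3668 and 3702 CPM in shDNM1, so that every shDNM1 library was below every shControl library and replicate 1 was the lowest. The log2 fold change was -0.16 (SE 0.065, interval -0.29 to -0.02, adjusted p = 0.0731), or 89.6% of control. Under 8 of 18 other settings it passed, and its adjusted p ranged from 0.00906 to 0.171 across the 18. Among them were leaving out shDNM1 replicate 2 (adjusted p = 0.0318) and library size in place of TMM (adjusted p = 0.00906). No other omission of a library gave a call. Without shDNM1 replicate 1, the lowest library, the log2 fold change was -0.094 (adjusted p = 0.143). Overlapping genes that could share reads lie within NKD1 in the deposited coordinates, AC007608.1, AC007608.2 and AC007608.4, with at most 442, 300 and 649 counts in a library against 41513 to 54220 for NKD1.

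Levels of different genes were compared on the deposited TPM scale, which is normalised for length. NKD1 and NOTUM were the most abundant in shControl, at 705 ± 15.3 and 674 ± 17.9 TPM (SD, n = 3), with overlapping ranges. SP5 (220 ± 5.57), ASCL2 (192 ± 5.11) and AXIN2 (175 ± 6.85) followed, each range separate from the next. SMOC2 (74.1 ± 3.69) and ZNRF3 (72.2 ± 1.41) overlapped, then came LGR5 (23.0 ± 3.52), and APCDD1 (16.9 ± 1.25) and RNF43 (15.3 ± 0.73), which overlapped each other.

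In the shDNM1 libraries the order changed below NOTUM. NKD1 (606 ± 38.1 TPM) and NOTUM (465 ± 23.6) no longer overlapped, ASCL2 (249 ± 5.14) stood above SP5 (231 ± 11.8), and AXIN2 was at 169 ± 6.07. ZNRF3 (69.5 ± 0.27) stood above APCDD1 (41.4 ± 2.35), which stood above SMOC2 (32.0 ± 0.81). RNF43 (13.6 ± 1.22) and LGR5 (11.6 ± 1.29) came last with overlapping ranges. APCDD1 thus went from 21.2, 26.1 and 21.2 per 100 of SMOC2 in shControl to 119, 133 and 137 in shDNM1. The 10 genes summed to 2141 to 2213 TPM in shControl and 1803 to 1965 TPM in shDNM1, and NKD1 with NOTUM made up 63.2% to 63.9% of that sum in shControl and 56.0% to 57.7% in shDNM1.

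**Figure D3:**
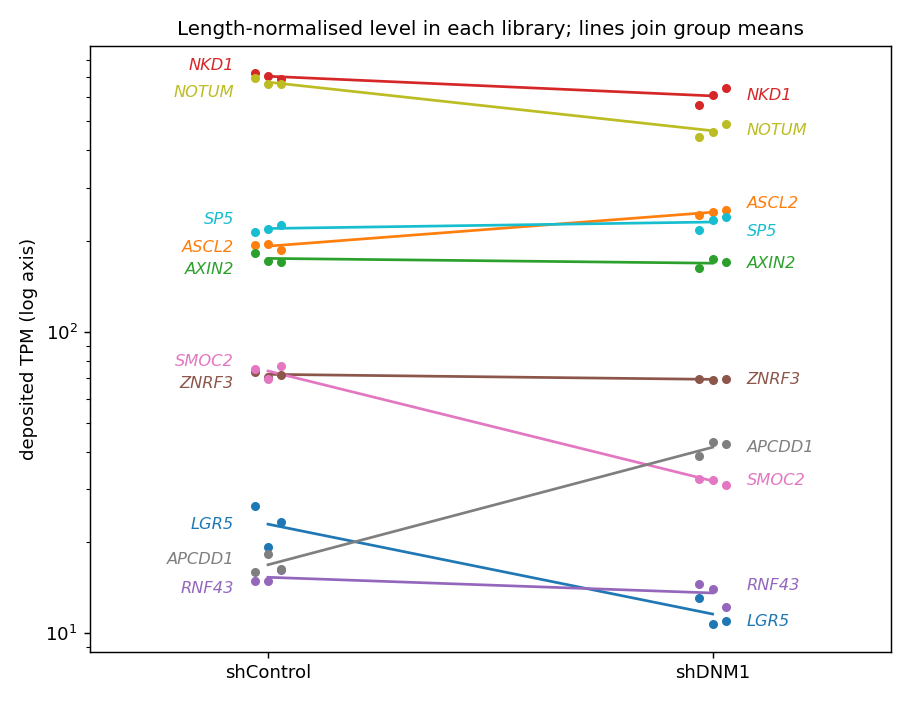
Deposited TPM (y axis, log scale) of the 10 genes in each shControl (left) and shDNM1 (right) library, with lines between group means. The APCDD1 and SMOC2 lines cross, and LGR5 goes from eighth to last place.

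Other genes of the pathway were counted in lists. Of 13 tested WNT receptors and co-receptors 9 fell, 0 rose and 4 did not pass (median log2 fold change -0.33), against 16.2% of all genes lower. PTK7, a pseudokinase co-receptor, fell from 249 ± 8.03 to 144 ± 6.27 CPM (adjusted p = 3.12e-08). The co-receptor genes LRP5 and LRP6 fell to 70.7% and 85.2% of control (adjusted p = 8.94e-06 and 0.00567), and the Frizzled gene FZD2 fell from 6.15 ± 1.15 to 2.83 ± 0.50 CPM (adjusted p = 0.000744). FZD1 and ROR1 fell to 44.6% and 40.8% of control from below 3 CPM. Without shControl replicate 3 only FZD2, LRP5, LRP6 and PTK7 of this list were called, with adjusted p values of 0.0545 to 0.107 for the other 5. With DESeq2 the calls were 6, with FZD1 and ROR1 added to those 4.

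The R-spondin receptors related to LGR5 changed in opposite directions. LGR4 fell from 24.4 ± 0.55 to 18.2 ± 2.07 CPM (adjusted p = 0.00488), and LGR6 rose from 99.9 ± 2.25 to 124 ± 3.53 CPM (adjusted p = 0.000958). The R-spondin genes were hardly detected. RSPO1 and RSPO3 had 0 counts in every library, and RSPO2 and RSPO4 had 2 counts in 1 library each. A count of 0 allows up to 3 counts in a library, by counting error only.

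Of 6 tested secreted and membrane WNT antagonists, 2 fell, 1 rose and 3 did not pass, so that 50% were called against 31.9% of all genes. SFRP5, a secreted Frizzled-like inhibitor, fell from 79.0 ± 8.89 to 19.4 ± 0.88 CPM (adjusted p = 6.23e-11). KREMEN1, a receptor for DKK proteins, fell to 72.1% of control (adjusted p = 1.67e-05). The inhibitor gene DKK1 had 1, 3 and 6 counts in the shControl libraries and 30, 32 and 48 in the shDNM1 libraries (adjusted p = 1.46e-05). DKK3 was at 1.82 ± 0.51 and 3.02 ± 0.88 CPM (adjusted p = 0.0729), and passed without shDNM1 replicate 1 (adjusted p = 0.0349), which made 2 antagonists higher.

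In the destruction complex and among nuclear effectors, 2 of 13 tested genes rose, 1 fell and 10 did not pass. That is 23.1% called, below the 31.9% of all genes. BCL9L, a beta-catenin co-activator, rose from 160 ± 7.01 to 263 ± 19.2 CPM (adjusted p = 2.65e-07), and its paralog BCL9 fell to 83.3% of control (adjusted p = 0.0184). The BCL9 call was lost without shControl replicate 2 or shDNM1 replicate 1 (adjusted p = 0.0739 and 0.0581). AXIN1 rose 1.21-fold (adjusted p = 0.0194), but without shControl replicate 1 or 3 it did not pass (adjusted p = 0.0766 and 0.0906). The same held when shDNM1 replicate 2 or 3 was left out (adjusted p = 0.0866 and 0.0900). It was also lost on the deposited TPM values. APC was at 54.5 ± 7.72 and 61.3 ± 6.60 CPM (adjusted p = 0.206). The beta-catenin gene CTNNB1, named after its values were seen, was at 756 ± 13.5 and 736 ± 31.3 CPM (adjusted p = 0.661).

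All 18 other beta-catenin target genes listed were tested, and 6 fell, 5 rose and 7 did not pass. That is 61.1% called, against 31.9% of all genes (15.6% higher and 16.2% lower). BAMBI, a TGF-beta pseudoreceptor, rose 1.80-fold (adjusted p = 6.64e-08), and MYC rose 1.48-fold (adjusted p = 7.91e-06). The adhesion receptor gene CD44 fell from 10.2 ± 0.52 to 3.52 ± 0.31 CPM (adjusted p = 1.96e-06). TDGF1 fell to 43.3% and BMP4 to 69.2% of control (adjusted p = 1.51e-05 and 1.41e-05). NKD2, the paralog of NKD1 and named after its values were seen, fell to 71.3% of control (adjusted p = 2.02e-05), and whether the pair differed was not tested.

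Of 14 tested further stem and progenitor markers, 6 fell, 0 rose and 8 did not pass, or 42.9% called against 31.9% of all genes. Their median log2 fold change was -0.34, against -0.01 over all genes. ALCAM fell to 41.9%, PROM1 to 44.1% and LRIG1 to 61.1% of control (adjusted p = 1.42e-08, 2.53e-05 and 0.000883). CDCA7 fell to 71.0% of control (adjusted p = 8.88e-05), and CD44 fell as given above. CD44, CDCA7, EPHB2, EPHB3, SOX9, TNFRSF19 and RGMB are counted both in this list and among the beta-catenin target genes. OLFM4, a marker of crypt base cells, had 0 counts in every library. Without shDNM1 replicate 1, 2 members of this list rose. Of 20 markers of differentiated intestinal cells only 5 were tested. Of these 2 rose, 0 fell and 3 did not pass, or 40% called against 31.9% of all genes. Goblet cell genes were not all called. MUC2 and TFF3 rose, MUC2 from 2.30 ± 0.061 to 10.9 ± 2.54 CPM (adjusted p = 2.54e-07) and TFF3 1.24-fold (adjusted p = 0.0137). The TFF3 call was lost without shControl replicate 1 or 2 (adjusted p = 0.0662 and 0.0551). FCGBP, another goblet cell gene, was at 1.08 ± 0.089 CPM in shControl and 0.62 ± 0.20 in shDNM1, or 57.6% of control without overlap, and did not pass (adjusted p = 0.155). The enterocyte gene FABP1 was at 1.62 ± 0.53 and 0.80 ± 0.35 CPM (adjusted p = 0.0688), and passed as lower without shDNM1 replicate 1 (adjusted p = 0.0301).

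The KEGG Wnt signalling pathway of the deposited annotation, examined after the data were seen, holds 7 of the 10 genes, all but ASCL2, SMOC2 and SP5. Of its 109 other tested genes 32 fell, 21 rose and 56 did not pass, so that 48.6% were called against 31.9% of all genes (median log2 fold change -0.08). None of these lists was tested as a set.

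**Figure D4:**
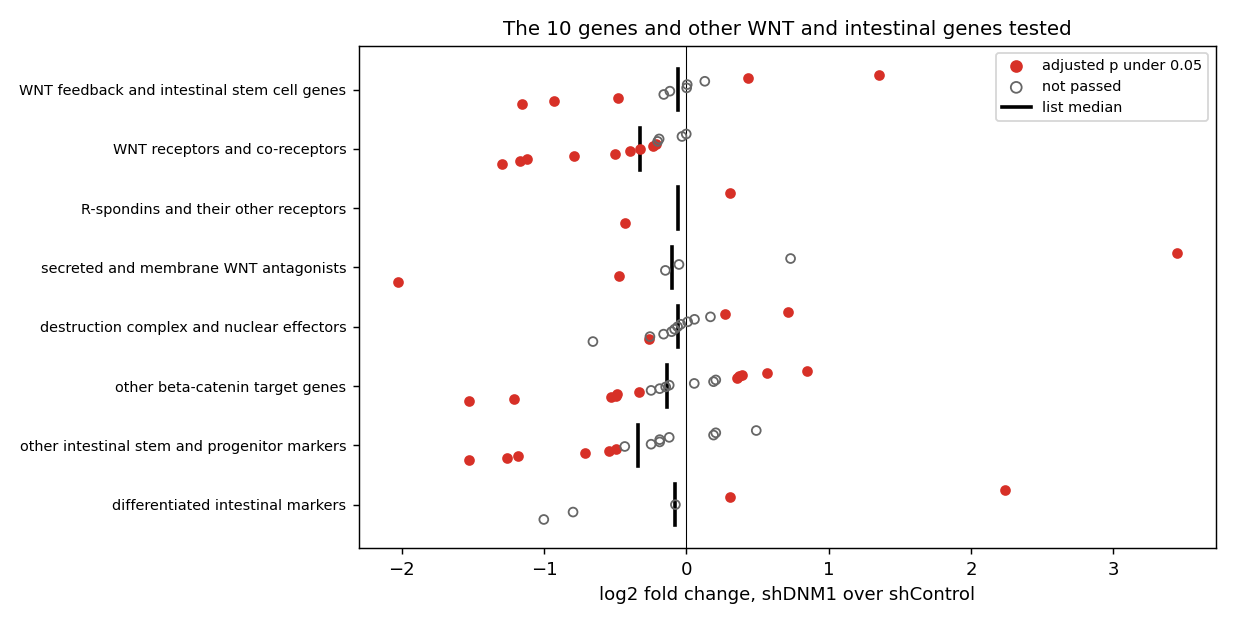
Log2 fold change (shDNM1 over shControl, x axis) of each tested gene in the 10-gene set and in 7 lists of related genes (rows), filled red where the adjusted p was under 0.05, with the list median as a black bar. All called genes of the receptor and of the further stem and progenitor lists lie left of 0, while the 10 genes fall on either side.

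The genomic surroundings of the 10 genes were examined with the coordinates of the deposited table. Around all 10 genes 77 tested neighbours within 200 kb were counted, with 14 higher and 10 lower, so that 31.2% were called against 31.9% of all genes. The ASCL2 locus is described first and was singled out of the 10 after its values were seen. Of its 7 tested neighbours 6 rose, against 15.6% of all genes, and TSSC4 did not pass (log2 fold change 0.08, adjusted p = 0.491). On one side, the growth factor gene IGF2, whose start lies 112 kb away, rose 4.90-fold, and the tyrosine hydroxylase gene TH rose 3.71-fold (adjusted p = 9.95e-13 and 3.10e-09). On the other side C11orf21 rose 2.19-fold, the tetraspanin genes TSPAN32 1.58-fold and CD81 1.22-fold (adjusted p = 2.38e-08, 0.000578 and 0.00457). MIR4686, next to TH, had 5 to 10 counts in shControl and 27 to 35 in shDNM1 libraries. The rise of ASCL2 itself, 1.35-fold, lay in the lower part of that range.

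Neighbours of the other genes went both with and against them. TSPAN8, which overlaps LGR5 on the opposite strand, fell from 5.07 ± 0.16 to 1.98 ± 0.56 CPM (adjusted p = 0.000318). Its 18 to 71 counts per library stand beside 218 to 510 for LGR5, and the strand setting of the counting is not known here. Next to SMOC2, DACT2 fell from 8.12 ± 0.92 to 4.07 ± 0.30 CPM (adjusted p = 0.000291). Next to APCDD1, NAPG rose 1.87-fold (adjusted p = 2.83e-08). Around NOTUM, which fell, 5 of 26 tested neighbours rose and 2 fell, against 15.6% of all genes higher and 16.2% lower. Of those that fell, AC145207.1 overlaps NOTUM on the opposite strand and could share reads with it. AC145207.1 fell to 74.0% of control and had at most 290 counts in a library, against 4235 to 6646 for NOTUM. Among the NOTUM neighbours that rose were SIRT7 (1.67-fold) and MAFG (1.43-fold, adjusted p = 9.18e-08 and 1.31e-05). RNF43 and ZNRF3, which did not pass, each had 2 lower neighbours, of 6 and 10 tested. They were SEPTIN4 and TSPOAP1 near RNF43, and EMID1 and KREMEN1 near ZNRF3. TSPOAP1 fell to 56.4% and EMID1 to 45.9% of control (adjusted p = 7.33e-05 and 0.000756). These neighbours were chosen after their values were seen.

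**Figure D5:**
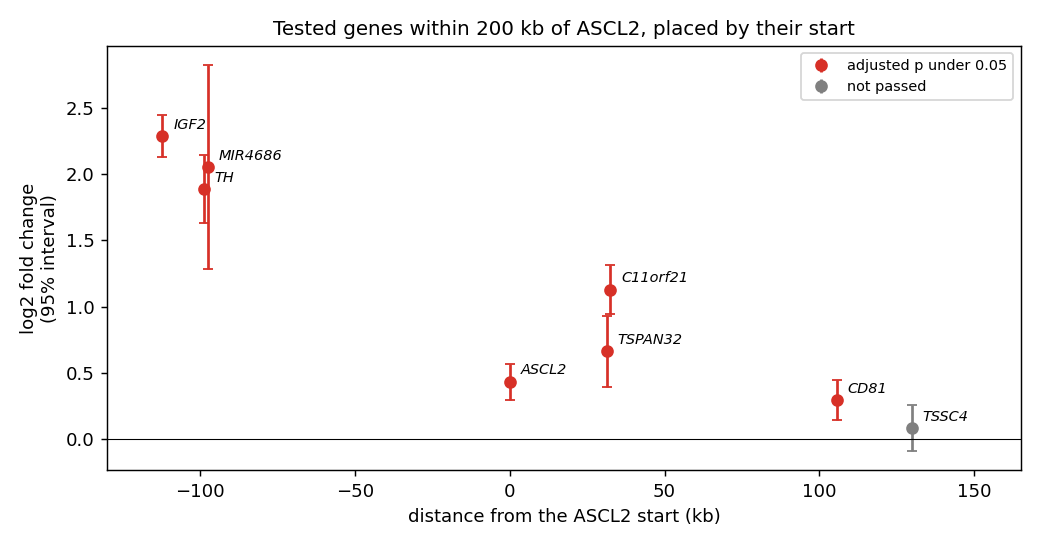
Log2 fold change with 95% interval (y axis) of each tested gene within 200 kb of ASCL2, against the distance of its start from that of ASCL2 in kb (x axis), red where the adjusted p was under 0.05. All 8 points lie above 0, highest for IGF2, MIR4686 and TH and lowest for TSSC4.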

How the data were processed

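The authors deposited a table of read counts per gene, whole numbers and not normalised, and a table of TPM values, both with 1 column for each library. The genome build was GRCh38, per the submitters' processing notes. Per the labels' protocols, libraries came from a SMARTER mRNA-seq kit after RNeasy extraction. For the aligner, counter, annotation release and strand setting, the entry is: not given in the sources used. The deposited TPM values were treated as a score, since their columns sum to 1000000 only over unique gene names. The deposited count table had lines numbering 62710 for 60835 names, and in both tables repeated lines with identical values were collapsed. Every per-sample column was used (0 left out).

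The test was edgeR 4.0.16 (R 4.3.3) on the counts (filterByExpr, TMM, glmQLFit and glmQLFTest, two-sided), with Benjamini-Hochberg adjustment over 16744 genes and a threshold of 0.05. Every adjusted p is from this test unless another is named. The SE is the log2 fold change divided by the square root of F. CPM are TMM-scaled unless said otherwise, with the SD over 3 libraries. The edgeR test was also run on simulated counts, drawn with the same spread setting for every gene and without a batch. That run cannot speak for a design in which batch and vector coincide. Library pairs were compared by chi-square per gene, which was at least 2.39 for every pair and up to 7.94 inside a set, so that none agreed within sampling noise.

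The 10 genes, the lists and the tests were chosen with earlier results of these data known. The rule for named genes took the 10 genes, DNM1, the R-spondin list and, from each other list, the 4 tested members of smallest p plus any called member changed at least 1.5-fold. The alternatives tried were DESeq2 1.42.0, limma-voom (limma 3.58.1), a robust edgeR fit, scaling by RLE, by upper quartile or by library size, dropping the low-count filter or asking for 1 CPM in 3 libraries, a 0.01 threshold, a replicate block, omission of each library, and limma-trend on deposited TPM with a pseudocount of 1 or 0.1. Counts over all genes and lists under these were added after seeing the data. The KEGG pathway was also added then, and was counted with the main edgeR test only. Batch could not be fitted beside the group.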

Additional observations from a re-analysis of the deposited data

How the results depend on the processing

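The calls of LGR5, SMOC2, ASCL2, APCDD1 and NOTUM, and the lack of a call for RNF43, held under all 18 alternatives. Members called higher numbered 2 to 3 and members called lower 3 to 4 when each library was left out, and the other pathway genes 9 to 14 higher and 18 to 26 lower. DNM1 ranged from -0.20 to -0.037 in log2 fold change over those omissions, and passed the test without shDNM1 replicate 1. Over all genes, 2617 were called higher and 2720 lower, 1739 and 1764 at a threshold of 0.01, and 1903 to 2939 and 2034 to 2951 with a library left out. On log2(TPM + 1) the split was 1801 higher and 2846 lower, or 38.8% higher against 49.0% in the edgeR fit. No setting moved the median of all genes by over 0.1 on the log2 scale.

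AXIN2 and ZNRF3, never called, changed sign. With upper quartile scaling their log2 fold changes were -0.0094 and -0.013, with library size alone -0.030 and -0.033, with log2(TPM + 1) -0.052 and -0.055, and with log2(TPM + 0.1) -0.053 and -0.055. Without a low-count filter ZNRF3 was at -0.0014. With a library left out, AXIN2 ranged from -0.042 to 0.054 and ZNRF3 from -0.019 to 0.022. Upper quartile scaling, library size alone and the 2 TPM settings moved the median of all genes by -0.016, -0.036, -0.053 and -0.062, about as far as they moved AXIN2 and ZNRF3, so these signs say nothing about either gene. For the omissions the cause was not tested.

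Whether replicate numbers shared by the sets pair the libraries was left unsettled. Correlations of same-numbered deviations were 0.10, 0.063 and -0.033 for replicates 1, 2 and 3. Those of replicates 1 and 2 were small but the highest of all pairs across the sets. Control replicate 3 correlated best with shDNM1 replicate 2 (0.032). With the replicate block 6080 genes were called in place of 5337, and of the 10 genes 2 were higher and 4 lower, with NKD1 added (log2 fold change -0.16, adjusted p = 0.0146).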
